A study of Oncorhynchus mykiss with 8 samples.

Results

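The 14 array probes described here carry the names of 7 proteins of the muscle sarcomere and its Z-disc: fast skeletal troponin I (3 probes), alpha actin, myosin heavy chain, titin, Telethonin and myozenin-2 (2 probes each) and xin actin-binding repeat-containing protein 2 (1 probe). They were chosen by name from the study's lists of transcripts that differed with body size, and make up 14 of the 43603 probes on the array. For 12 of them the listing used the muscle arrays of 1 of the 2 lots, so their values in that lot are given as a description, with no test. The other 2, a titin and a myozenin-2 probe, were listed for liver only. The names came from Blast2GO for 9 probes and from the array maker for 5, the 3 troponin I probes, 1 titin probe and the xin probe. The word fast stands in the names of only the 3 troponin I probes, so the set is called myofibril and Z-disc probes below.

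White muscle of large fish was compared with that of small fish of the Lyndon strain of rainbow trout, in a lot spawned in September (Sept. fish) and a lot spawned in December (Dec. fish). Each lot consisted of 5 families with a common sire, the sire and the dams differing between the lots. The fish of both lots were immature and of about the same age. The Sept. lot was sampled near the winter solstice and the Dec. lot later, under lengthening days, and the Dec. fish were heavier. Parents, season and weight thus differed together between the lots and cannot be told apart. A pool held mRNA of 5 fish, 1 from each family, taken from white muscle below the dorsal fin with the skin removed. Large-fish and small-fish pools were hybridised in pairs on 2-colour arrays, and again with the Alexa Fluor 555 and 647 dyes exchanged, which gave 2 pool pairs on 4 arrays per lot and 8 arrays in all. Pairing went by weight rank within families. The largest fish were set against the next to smallest, and the next to largest against the smallest, so the pool pairs are not random draws. The array was designed from Atlantic salmon sequences, and which trout gene copy a probe detects was not given in the sources used here.

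The sarcomere is the contractile unit of striated muscle. Thick filaments of myosin pull on thin filaments of actin, and troponin I is the subunit of the troponin complex that holds the thin filament inhibited until calcium binds troponin C. Titin spans from the M-band to the Z-disc, where thin filaments are anchored. Telethonin (titin-cap) binds the titin ends there, and myozenin-2 (calsarcin-1) links alpha-actinin to calcineurin. In mammals myozenin-2 belongs mainly to heart and slow fibres, and xin proteins bind actin at attachment sites of muscle fibres. Trout white muscle is made mostly of fast fibres and grows by adding new fibres as well as by enlarging old ones.

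Values are log2(large/small) and are positive where large fish had more of a transcript. This direction is likely rather than given: it rests on 965 of 965 muscle listings of the study that had the sign stated there when every column was read as small over large and then negated. Array values are given with the array that held large fish in Alexa Fluor 555 first and the array with large fish in 647 second. Lot values are means of 2 pool pairs ± the standard error (SE) of a limma fit over all probes (n = 2 pool pairs per lot), and their precision is limited by the number of arrays. In that fit the lowest adjusted p of any probe was 0.9996 for Sept. fish and 0.167 for Dec. fish. Every tested Sept. value of the set had this same 0.9996, whatever its size. It therefore does not tell these probes apart and is not evidence that a probe did not differ. The files hold ratios only, so how brightly a probe hybridised, and whether defining markers of white muscle were present, could not be read from them. In pooled tissue, fewer cells of a type and less RNA per cell cannot be told apart.

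The arrays did not all behave alike. The exchanged arrays of a pool pair correlated at -0.19 and -0.12 across probes in the Sept. lot, and at -0.28 and 0.50 for Dec. pool pairs 1 and 2. The Dec. pool pair 1 array with large fish in 555 had the widest spread (SD 0.60, against 0.29 to 0.51 on the other 7 arrays). On that array 10 of the 14 myofibril and Z-disc probes were above 0 with a median of 0.92, and on its exchanged partner 2 of 14 were above 0 with a median of -0.44. Dec. values are therefore also given without that array where it moved them most. Leaving out its exchanged partner instead moves a Dec. mean as far the other way. Which of the 2 arrays is the less reliable was not tested.

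**Figure D1:**
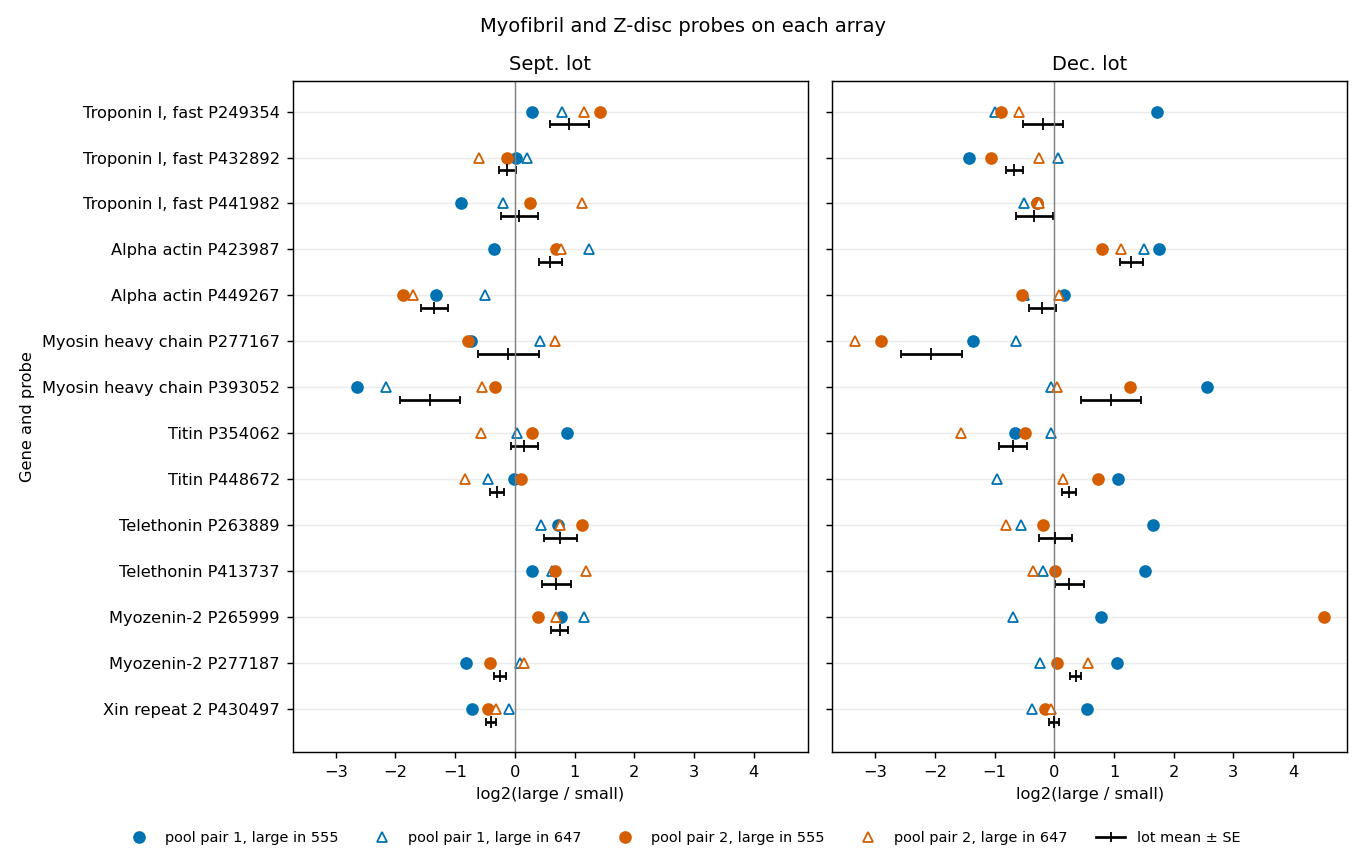
Log2(large/small) of each of the 14 probes on every array, Sept. lot on the left and Dec. lot on the right. Circles are arrays with large fish in Alexa Fluor 555 and triangles arrays with large fish in 647, blue for pool pair 1 and orange for pool pair 2, and the black bar under each row is the lot mean ± SE. The 7 probes chosen on Sept. arrays keep 1 sign on all 4 Sept. arrays, while the Dec. pool pair 1 circle often stands to the right of the other Dec. arrays.

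The 3 probes named fast skeletal troponin I did not read alike on the arrays. A_05_P249354 was chosen on the Sept. arrays and the other 2 on the Dec. arrays, which favours a contrast between them. A_05_P249354 was higher in large Sept. fish on every array, at 0.28 and 0.79 in pool pair 1 and 1.42 and 1.16 in pool pair 2. Its mean of 0.91 ± 0.33 (1.88-fold) is the value it was listed on. Its Dec. arrays read 1.73 and -0.99 in pool pair 1 and -0.89 and -0.58 in pool pair 2, so that 1 array was high in large fish and 3 were low. The Dec. mean of -0.19 ± 0.33 was not significant (95% interval -1.08 to 0.71, adjusted p = 0.869), and was -0.87 without the high array.

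The other troponin I probes were both listed for small Dec. fish. A_05_P432892 read -1.43 and 0.06 in Dec. pool pair 1 and -1.06 and -0.25 in pool pair 2, with a mean of -0.67 ± 0.14 (1.59-fold higher in small fish), the low values lying on the arrays with large fish in 555. Without the Dec. pool pair 1 array with large fish in 555 the mean was -0.30. Its Sept. arrays read 0.02, 0.21, -0.13 and -0.61, with 2 above and 2 below 0, and its mean of -0.13 ± 0.14 was not significant (adjusted p = 0.9996). A_05_P441982 was below 0 on all 4 Dec. arrays, at -0.28, -0.51, -0.28 and -0.25 (mean -0.33 ± 0.31, 1.26-fold). Its Sept. arrays ran from -0.90 and -0.20 in pool pair 1 to 0.26 and 1.13 in pool pair 2, so that the pool pairs opposed each other and the mean of 0.07 ± 0.31 was not significant (adjusted p = 0.9996).

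Alpha actin is the main protein of the thin filament, and its 2 probes lay on opposite sides of 0 in both lots. A_05_P423987 was higher in large Dec. fish, at 1.76 and 1.50 in pool pair 1 and 0.80 and 1.11 in pool pair 2, with a mean of 1.29 ± 0.19 (2.45-fold), on which it was listed. Its Sept. arrays, which did not enter that listing, read -0.36, 1.24, 0.70 and 0.78. Large fish were thus higher on 3 of the 4 Sept. arrays, by 0.59 ± 0.19 (1.51-fold, 95% interval 0.07 to 1.11). This passed the study's threshold (an unadjusted limma p up to 0.05 and at least 1.2-fold) but not the adjustment over all probes (adjusted p = 0.9996).

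The alpha actin probe A_05_P449267 was listed for small Sept. fish, at -1.33 and -0.49 in pool pair 1 and -1.88 and -1.70 in pool pair 2 (mean -1.35 ± 0.22, 2.55-fold higher in small fish). All 4 Sept. arrays were below 0. Its Dec. arrays read 0.16, -0.51, -0.55 and 0.08, with 2 above and 2 below 0, and the Dec. mean of -0.20 ± 0.22 was not significant (adjusted p = 0.759), and was -0.37 without the Dec. pool pair 1 array with large fish in 555. A_05_P423987 was above A_05_P449267 on all 8 arrays, by 0.97 to 2.57 log2 units, with a mean difference of 1.94 in Sept. fish and 1.49 in Dec. fish. A_05_P449267 was chosen as low on the Sept. arrays and A_05_P423987 as high on the Dec. arrays, which favours this order in each lot.

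Myosin heavy chain, the motor protein of the thick filament, had 2 probes that gave different patterns. A_05_P277167 was listed for small Dec. fish and was below 0 on all 4 Dec. arrays, at -1.37 and -0.64 in pool pair 1 and -2.90 and -3.33 in pool pair 2. The mean was -2.06 ± 0.52 (4.17-fold higher in small fish), and pool pair 2 alone averaged -3.12. Its Sept. values followed the dye, at -0.73 and -0.78 with large fish in 555 and 0.42 and 0.67 with large fish in 647, and the mean of -0.11 ± 0.52 was not significant (adjusted p = 0.9996).

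Probe A_05_P393052 was listed for small Sept. fish, at -2.65 and -2.16 in pool pair 1 and -0.33 and -0.55 in pool pair 2 (mean -1.42 ± 0.50, 2.68-fold higher in small fish). All 4 Sept. arrays were below 0, pool pair 1 far more so. In the Dec. lot the arrays with large fish in 555 read 2.56 and 1.26, and those with large fish in 647 read -0.06 and 0.05. The Dec. mean of 0.96 ± 0.50 (95% interval -0.40 to 2.31) was not significant (adjusted p = 0.468) and was 0.30 without the Dec. pool pair 1 array with large fish in 555. Without its exchanged array instead it was 1.61.

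Probes on a list for slow muscle were, like A_05_P277167, lower in large Dec. fish. This list holds 12 probes, and only some have the word slow in their name. The others are named as tropomyosins, cardiac forms, myosin light chain 3-like or myoglobin, so their fibre type is not given by the name. In the Dec. lot 11 of the 12 were measured. All 11 were higher in small fish past the study's threshold (7.59% of all probes). Their median was -1.53, with myosin light chain 3-like the farthest at -2.23 ± 0.29. All 12 were measured in Sept. fish, where their median was 0.16, and 2 passed the threshold, both higher in large fish (1.16% of all probes). The study listed all 11, like A_05_P277167, on these Dec. arrays, so their shared direction is not independent evidence. Their median was -0.48 and -2.30 on the arrays of Dec. pool pair 1 and -2.50 and -0.60 on those of pool pair 2. A_05_P277167 read -1.37 and -0.64 in pool pair 1 and -2.90 and -3.33 in pool pair 2. Exchanged arrays share their RNA, so a difference between them is not one of fibre content. The name of A_05_P277167 does not say which fibre type it belongs to, and the part of slow fibres in its value was not tested.

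Titin, the elastic filament, was represented by a probe listed for muscle and a probe listed for liver only. A_05_P354062 was below 0 on all 4 Dec. arrays, at -0.65, -0.06, -0.48 and -1.57, with a mean of -0.69 ± 0.23 (1.61-fold higher in small fish), on which it was listed. Its Sept. arrays read 0.87, 0.04, 0.28 and -0.57, and the mean of 0.16 ± 0.23 was not significant (adjusted p = 0.9996). The probe named after human titin, A_05_P448672, could be tested in both lots. Its Sept. arrays read -0.01, -0.46, 0.10 and -0.83, 3 of 4 being lower in large fish, with a mean of -0.30 ± 0.12 (adjusted p = 0.9996). Its Dec. arrays read 1.07, -0.96, 0.74 and 0.15, with a mean of 0.25 ± 0.12 (adjusted p = 0.440) that was -0.26 without the Dec. pool pair 1 array with large fish in 555. Without its exchanged array instead the mean was 0.76. Neither the Sept. nor the Dec. mean over all 4 arrays was significant.

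The 2 probes for Telethonin, the cap of titin at the Z-disc, gave the most alike values of any probes of 1 gene. Both were listed for large Sept. fish. A_05_P263889 read 0.73 and 0.44 in Sept. pool pair 1 and 1.12 and 0.76 in pool pair 2 (mean 0.76 ± 0.28, 1.70-fold). A_05_P413737 read 0.28 and 0.63 in pool pair 1 and 0.67 and 1.19 in pool pair 2 (mean 0.69 ± 0.24, 1.62-fold). All 8 of these values were higher in large fish.

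On the Dec. arrays A_05_P263889 read 1.65 and -0.56 in pool pair 1 and -0.19 and -0.82 in pool pair 2, while A_05_P413737 read 1.53, -0.18, 0.02 and -0.36. Both probes stood high on the same array, that of pool pair 1 with large fish in 555, and near or below 0 on the other 3. The Dec. means of 0.02 ± 0.28 for A_05_P263889 (95% interval -0.73 to 0.77, adjusted p = 0.987) and 0.25 ± 0.24 for A_05_P413737 (95% interval -0.41 to 0.91, adjusted p = 0.717) were not significant. Without that array they were -0.53 for A_05_P263889 and -0.17 for A_05_P413737. Without its exchanged array instead they were 0.57 for A_05_P263889 and 0.68 for A_05_P413737. The side of 0 thus depended on which array was left out.

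Over the 8 arrays the Telethonin probes had the same sign on 7 and differed by at most 0.46. Among 38487 other probes measured on all arrays, A_05_P413737 was the nearest to A_05_P263889 by this largest difference, and A_05_P263889 ranked 2 from A_05_P413737. Left with the 7 arrays other than the Dec. pool pair 1 array with large fish in 555, the ranks were 2 from A_05_P263889 and 7 from A_05_P413737. On the 4 Dec. arrays alone, which the listing did not use, the ranks were 80 from A_05_P263889 and 303 from A_05_P413737 of 38487. Troponin I A_05_P249354, chosen on the Sept. arrays like both Telethonin probes, had A_05_P263889 at rank 2 over all arrays (largest difference 0.70) and A_05_P413737 at rank 6, while the other troponin I probes, chosen on the Dec. arrays, ranked 37503 (A_05_P432892) and 27242 (A_05_P441982). On the 4 Dec. arrays, the ranks from A_05_P249354 were 61 for A_05_P263889, 387 for A_05_P413737, 37641 for A_05_P432892 and 28484 for A_05_P441982. On the 7 arrays they were 2, 13, 32551 and 892 in the same order, so that A_05_P441982 stood far nearer without the high array. Seen from A_05_P263889, troponin I A_05_P249354 ranked 8 over all arrays, 38 on the 7 arrays and 435 on the 4 Dec. arrays.

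**Figure D2:**
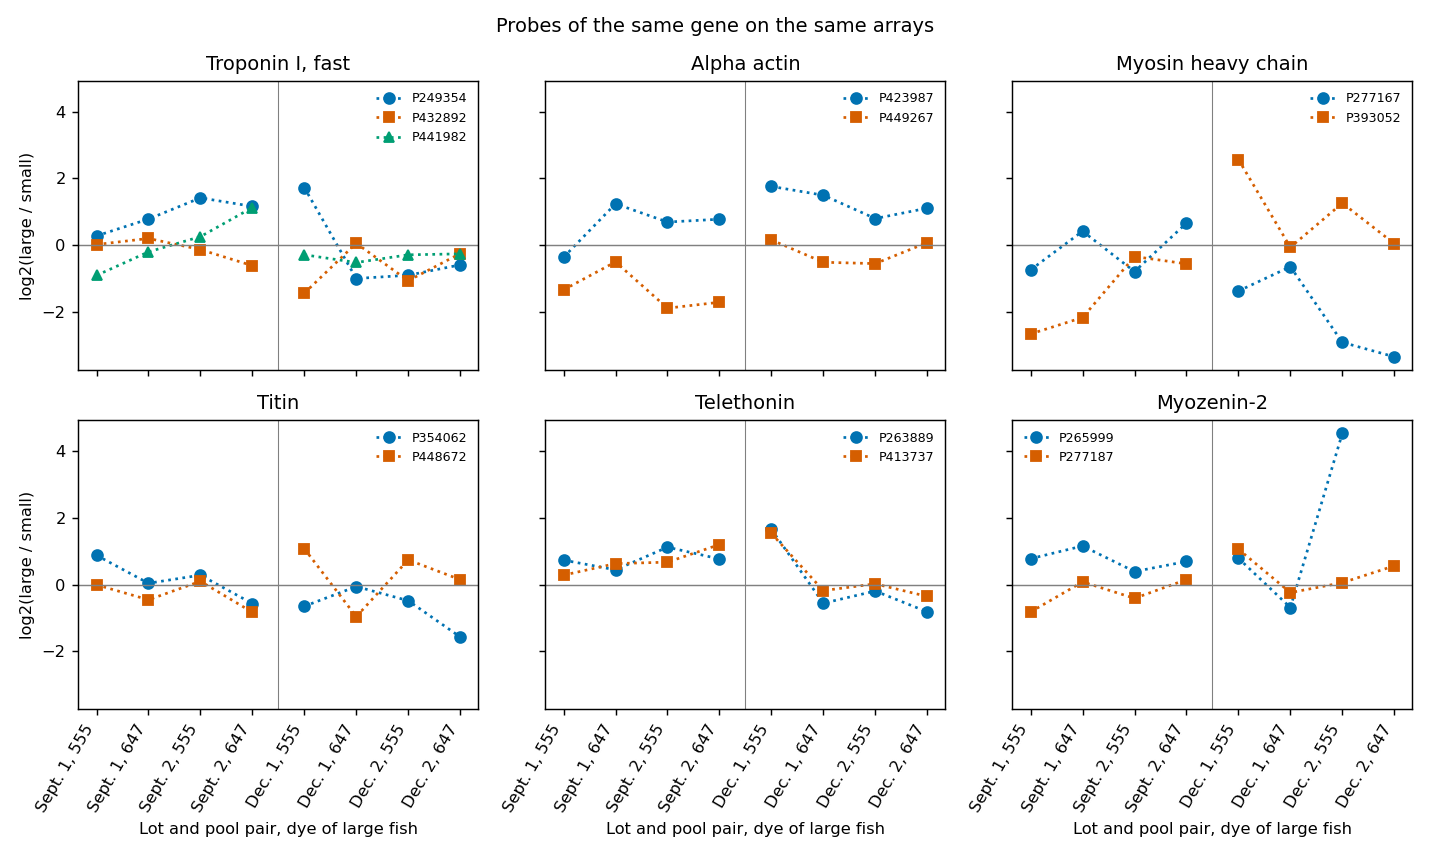
Log2(large/small) of the probes of each gene on the 8 arrays, a panel per gene, Sept. arrays left and Dec. arrays right of the vertical line, and dotted lines joining arrays only to guide the eye. The Telethonin probes stay within 0.46 of each other, the alpha actin probes stay 0.97 to 2.57 apart, and the myosin heavy chain probes change order between the lots. In each lot 1 of the alpha actin and 1 of the myosin heavy chain probes was chosen on these values, which favours these orders. Both Telethonin probes were chosen as high on the Sept. arrays, which favours their likeness there.

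Myozenin-2, which joins alpha-actinin to calcineurin at the Z-disc, had a probe listed for large Sept. fish and a probe listed for liver only. A_05_P265999 was above 0 on all 4 Sept. arrays, at 0.77, 1.15, 0.39 and 0.69 (mean 0.75 ± 0.14, 1.68-fold), on which it was listed. In the Dec. lot it read 0.79 and -0.69 in pool pair 1 and 4.52 on the pool pair 2 array with large fish in 555, and had no value on the exchanged array, so it was not tested. The 4.52 therefore has no exchanged array to set it against.

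The second myozenin-2 probe, A_05_P277187, could be tested in both lots. Its Sept. arrays read -0.82 and -0.41 with large fish in 555 and 0.08 and 0.15 with large fish in 647, and the mean of -0.25 ± 0.09 (1.19-fold higher in small fish) was not significant (adjusted p = 0.9996). Its Dec. arrays read 1.06, -0.24, 0.05 and 0.56, 3 of 4 being higher in large fish. The Dec. mean of 0.36 ± 0.09 (1.28-fold, 95% interval 0.10 to 0.61) passed the study's threshold but not the adjustment (adjusted p = 0.224). Without the Dec. pool pair 1 array with large fish in 555 it was 0.03 ± 0.17. Without its exchanged array instead it was 0.68 ± 0.21.

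The probe for xin actin-binding repeat-containing protein 2, A_05_P430497, had the smallest Sept. value among those chosen on Sept. arrays. It was below 0 on all 4, at -0.72, -0.09, -0.45 and -0.32 (mean -0.40 ± 0.09, 1.32-fold higher in small fish). On the Dec. arrays it read 0.55, -0.37, -0.15 and -0.06, and the mean of -0.01 ± 0.09 was not significant (95% interval -0.24 to 0.23, adjusted p = 0.985), and was -0.24 without the first of these arrays.

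Whether the size difference of a probe in the lot it was listed on was found again in the other lot is the comparison these data allow. Of the 12 probes listed for muscle, 11 had a value in the other lot, 7 of them on the same side of 0 and 4 on the opposite side, and 52.6% of all 38488 probes measured in both lots had the same side. The xin probe counts among the 7 at -0.01. Without the Dec. pool pair 1 array with large fish in 555, both Telethonin probes changed side, and the counts were 5 on the same side and 6 on the opposite side, against 52.3% of all probes. Without its exchanged array instead, both Telethonin probes kept their side. Troponin I A_05_P249354 then moved to the same side (0.49) and xin to the opposite side (0.22). Including the 2 probes listed for liver, 15 lot values could be tested, and none passed an adjusted p under 0.05. Since no probe on the array did so in this fit, that outcome does not set these probes apart. Over all probes 0 adjusted calls were made in either lot by this limma fit, and 8 in the Dec. lot with the pool pair as a random effect and a dye term, although an unadjusted p up to 0.05 was reached by 1482 probes in Sept. fish and 6122 in Dec. fish. The study's threshold was passed by 1 of 7 tested Sept. values (alpha actin A_05_P423987), against 2.79% of all probes, and 1 of 8 tested Dec. values (myozenin-2 A_05_P277187), against 14.1% of all probes. The Dec. share is close to the background. A common sign on all 4 arrays was seen for 0 of 7 tested Sept. probes, against 9.86% of all probes, and for 0 of 8 tested Dec. probes, against 14.8% of all probes.

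The values used for a listing that lay nearest to the 1.2-fold limit were the 1.26-fold of troponin I A_05_P441982 in the Dec. lot and the 1.32-fold of xin A_05_P430497 in the Sept. lot. Among the values not used for a listing, titin A_05_P448672 in the Sept. lot lay just inside that limit at 1.23-fold, and just outside it at 1.19-fold each lay myozenin-2 A_05_P277187 in the Sept. lot, and titin A_05_P448672 and Telethonin A_05_P413737 in the Dec. lot.

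**Figure D3:**
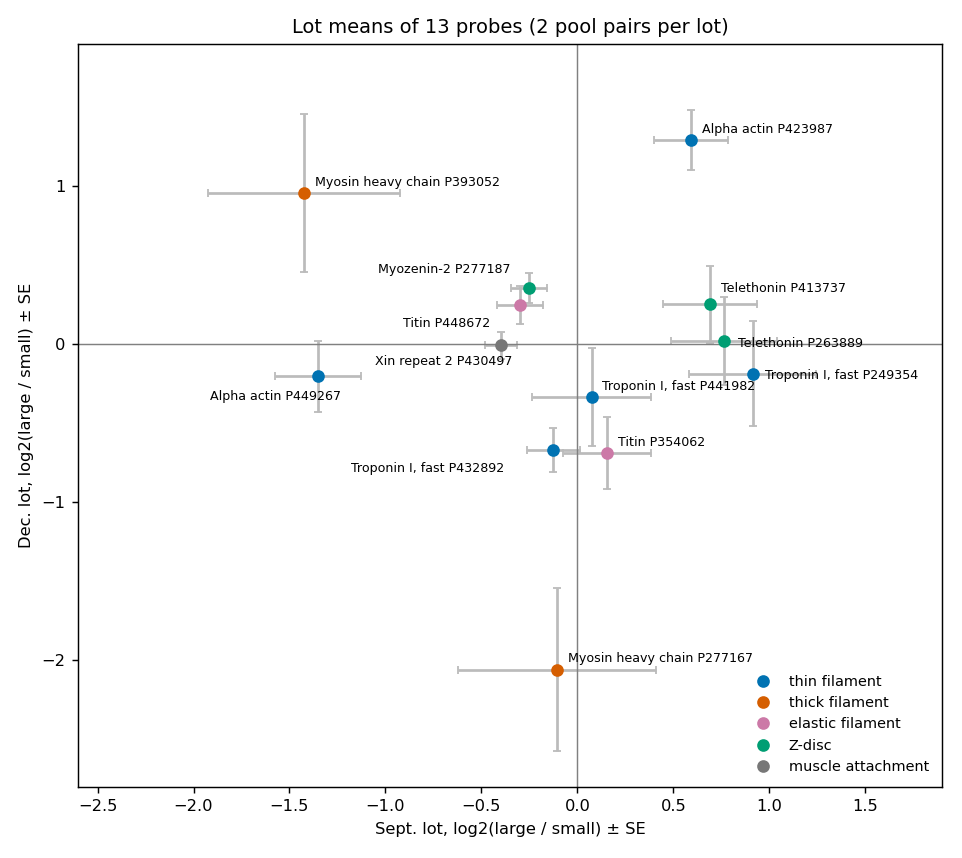
Mean log2(large/small) ± SE (n = 2 pool pairs per lot) of the 13 probes with a value in both lots, Sept. lot on the horizontal and Dec. lot on the vertical axis, coloured by role in the sarcomere. Alpha actin A_05_P423987 lies high in large fish in both lots, myosin heavy chain A_05_P393052 lies at -1.42 in Sept. fish and 0.96 in Dec. fish, and Telethonin A_05_P263889 lies at 0.76 in Sept. fish and 0.02 in Dec. fish.

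For myosin heavy chain, Dec. minus Sept. was 2.38 ± 0.70 for A_05_P393052 and -1.95 ± 0.73 for A_05_P277167. The 2 probes had opposite signs, which their choice as low in large fish in different lots favours. It was 1.15 ± 0.32 for alpha actin A_05_P449267 and 0.70 ± 0.27 for A_05_P423987. For troponin I it was -1.10 ± 0.47 (A_05_P249354), -0.54 ± 0.19 (A_05_P432892) and -0.41 ± 0.44 (A_05_P441982). A_05_P249354 was chosen as high in large Sept. fish and the other 2 as low in large Dec. fish, which favours values below 0. Titin again divided, with -0.85 ± 0.32 for A_05_P354062 and 0.55 ± 0.17 for A_05_P448672. Among the Z-disc proteins it was -0.74 ± 0.39 and -0.44 ± 0.34 for Telethonin A_05_P263889 and A_05_P413737, and 0.61 ± 0.14 for myozenin-2 A_05_P277187, against 0.39 ± 0.12 for the xin probe. Dec. minus Sept. was also taken without the Dec. pool pair 1 array with large fish in 555. It was then 1.72 for myosin heavy chain A_05_P393052 and -1.77 for A_05_P277167. For troponin I A_05_P249354 it moved from -1.10 to -1.78. It was then -0.17 for troponin I A_05_P432892, 0.04 for titin A_05_P448672, -1.29 for Telethonin A_05_P263889 and -0.87 for A_05_P413737, 0.28 for myozenin-2 A_05_P277187 and 0.16 for xin. Leaving out the exchanged array instead moves each difference the other way. The Dec. mean of troponin I A_05_P249354 was then 0.49 against 0.91 in Sept. fish, and that of Telethonin A_05_P263889 was 0.57 against 0.76, so these differences shrank. That of myosin heavy chain A_05_P393052 grew, at 1.61 against -1.42. All Dec. minus Sept. values are descriptions, since for most probes 1 of the lots chose them. For every probe listed for muscle with a value in both lots, that choice pushes the difference toward the sign found. These signs are therefore not independent evidence.

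Probes of 1 gene other than Telethonin often differed in sign. The titin probes shared a sign on 3 of 8 arrays, the alpha actin probes on 3 of 8 and the myosin heavy chain probes on 3 of 8. The troponin I pairs shared a sign on 4, 5 and 3 of 8 arrays, and the myozenin-2 probes on 5 of the 7 arrays where both had a value. The share for pairs of unrelated probes was not taken, so these counts do not set probes of 1 gene apart. Both Telethonin probes were chosen as high on the same Sept. arrays, and the alpha actin probes in opposite directions, which favours the contrast between these genes. Between the myosin heavy chain probes the difference reached 4.16 log2 units, and A_05_P277167 minus A_05_P393052 averaged 1.32 in Sept. fish and -3.01 in Dec. fish. Each was chosen as low in large fish in a different lot, which favours this change of sign.

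Many of these values differed between the 2 dye orientations. Of 14 Sept. values 9 had the same sign in both orientations, and of 13 Dec. values 7 did. A listing favours arrays that read alike, so values chosen on their own lot raise these counts. All 7 chosen Sept. values and 4 of the 5 chosen Dec. values had 1 sign on all 4 arrays. Among values not so chosen, this held for 0 of 7 in Sept. fish and 0 of 8 in Dec. fish. The share over all probes with the same sign in both orientations was not taken. The orientation with large fish in 555 minus that with large fish in 647 ranged from -1.30 (myosin heavy chain A_05_P277167) to 0.84 (titin A_05_P354062) in the Sept. lot, its median being -0.36 against -0.04 over all probes. Over the Dec. arrays it ranged from -1.15 (troponin I A_05_P432892) to 1.92 (myosin heavy chain A_05_P393052), with a median of 0.40 against -0.02 over all probes. The median of the set was 0.92 (555) and -0.44 (647) in Dec. pool pair 1, but -0.17 and -0.25 in pool pair 2. The Dec. shift of the median thus lay mainly in pool pair 1, whereas the 2 probes at the ends of the range also shifted in pool pair 2. A dye effect and a single deviating array were not told apart. In the Dec. lot alpha actin A_05_P423987 read 1.28 with large fish in 555 and 1.30 with large fish in 647, and myosin heavy chain A_05_P277167 read -2.13 with large fish in 555 and -1.99 with large fish in 647. Both probes were chosen on these Dec. arrays, which favours such likeness. On the Sept. arrays, which did not choose them, A_05_P423987 read 0.17 (555) and 1.01 (647), and A_05_P277167 read -0.76 (555) and 0.54 (647).

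**Figure D4:**
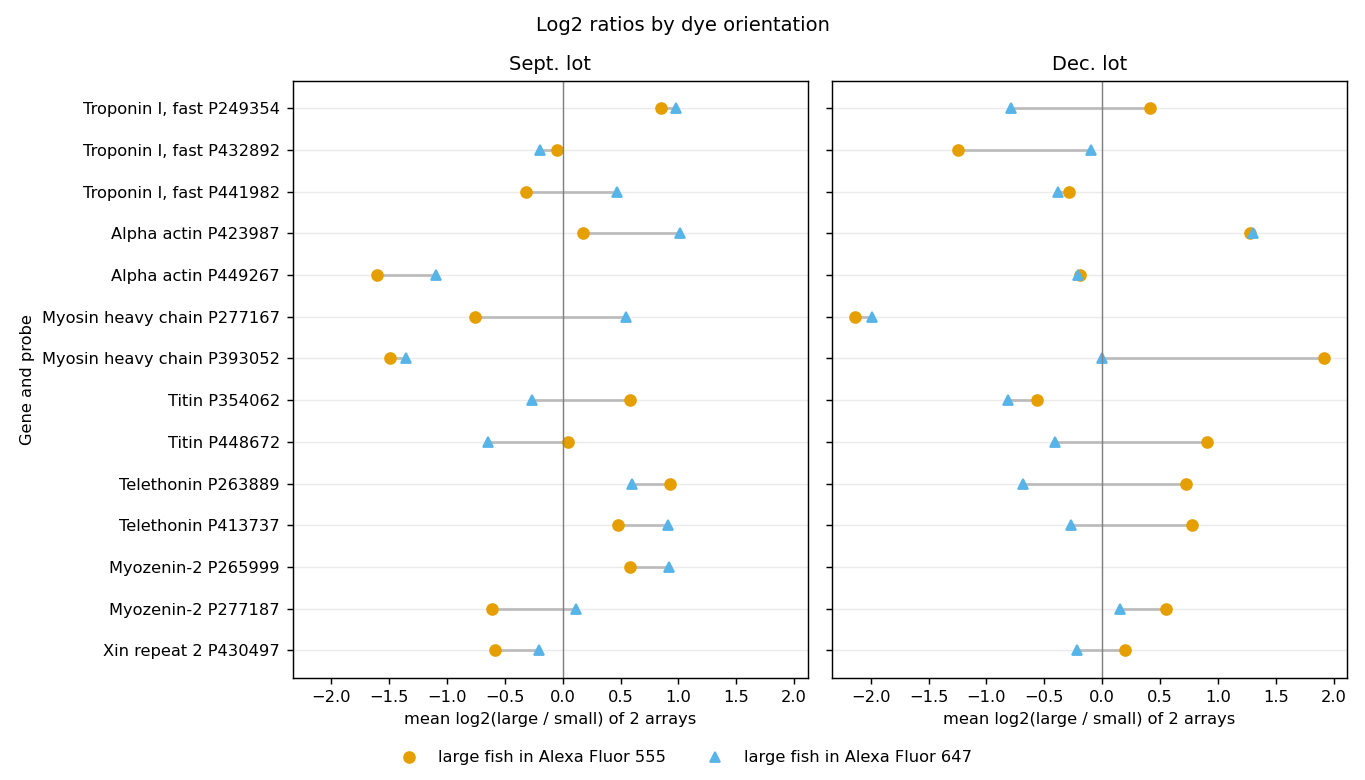
Mean log2(large/small) of the 2 arrays of a lot with large fish in Alexa Fluor 555 (orange circles) and of the 2 arrays with large fish in 647 (blue triangles), joined by a line for each probe, Sept. lot left and Dec. lot right. Short lines, as for alpha actin A_05_P423987 in the Dec. lot, are values that both orientations gave alike. That probe was chosen on the Dec. arrays, which favours this likeness, and its Sept. line runs from 0.17 to 1.01. Lines that cross 0 are values whose sign depends on the orientation.

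On each array the myofibril and Z-disc probes lay farther from 0 than probes in general. Their median absolute log2(large/small) was 0.36 to 1.22 over the 8 arrays, against 0.12 to 0.24 for all probes, which their choice from lists of differing transcripts partly fixes. Their median lot value was -0.02 in the Sept. lot, with 7 probes above and 7 below 0, and -0.01 in the Dec. lot, with 6 above and 7 below, against -0.01 in both lots over all probes. The set had no common direction in either lot, but the listings fixed part of these signs. Of the values chosen on their own lot, 4 were above and 3 below 0 in Sept. fish, and 1 above and 4 below in Dec. fish. Of the measured values not so chosen, 3 were above and 4 below 0 in Sept. fish, and 5 above and 3 below in Dec. fish.

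Few other fast filament proteins had a name on this array. In the Sept. lot 0 of 4 were past the threshold toward large fish (1.16% of all probes) and 1 of 4 toward small fish (1.63% of all probes), the largest value being 0.80 ± 0.31 for myosin light chain 1, which regulates the myosin head. In the Dec. lot it was 1 of 4 toward large fish (6.54% of all probes) and 1 of 4 toward small fish (7.59% of all probes), the largest value being 0.50 ± 0.21 for fast myotomal muscle troponin-t-1, which anchors troponin to tropomyosin. Fast myotomal muscle tropomyosin, which lies along the thin filament, was -0.34 ± 0.08 in the Sept. lot, on which it was listed, and 0.37 ± 0.08 in the Dec. lot, on which it was not. A further probe named as fast skeletal myosin heavy chain was near 0 in Sept. fish and at -0.50 ± 0.10 in Dec. fish, on which it was listed.

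The other Z-disc and M-band proteins had lower values in large fish in most cases. Of 7 measured in the Sept. lot 2 passed the threshold, both toward small fish (1.63% of all probes), with a list median of -0.16 and lim domain binding 3, a Z-disc adaptor, the farthest at -0.50 ± 0.16. In the Dec. lot 5 of 8 passed toward small fish (7.59% of all probes) and 1 toward large fish (6.54% of all probes), with a median of -0.40. Actinin alpha 2, the protein that cross-links thin filaments at the Z-disc, was the farthest at -1.11 ± 0.08 in the Dec. lot, against 0.13 ± 0.08 in the Sept. lot. All probes of this list that passed were listed by the study on the same arrays, so the counts are not independent of them. All probes that passed among those for cytoskeletal actin and myosin were likewise listed on the same arrays, and of the 4 not listed for the Dec. lot 0 passed, with a median of 0.12. The cytoskeletal probes had a median of -0.06 in the Sept. lot (0 of 8 past toward large fish and 1 toward small fish, against 1.16% and 1.63% of all probes) and 0.66 in the Dec. lot (4 of 9 toward large fish and 1 toward small fish, against 6.54% and 7.59% of all probes), with non muscle myosin-2 heavy chain the farthest in both, at 1.18 ± 0.55 in Sept. fish and 1.35 ± 0.55 in Dec. fish.

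Probes of other cell types, most of them listed by the study from these arrays, had the following values. Hemoglobin probes, of red blood cells, were above 0 in 10 of 10 cases in the Sept. lot (median 0.68) and 9 of 10 in the Dec. lot (median 1.64). Few of them passed the threshold, 1 of 10 toward large fish in each lot and 1 of 10 toward small fish in the Dec. lot. Their array medians were 0.24 to 0.94 on Sept. arrays, 0.27 and 0.11 in Dec. pool pair 1 and 2.55 and 3.68 in Dec. pool pair 2, so that the Dec. pool pairs stood far apart. Plasma protein probes had a median of 0.95 in Sept. fish (6 of 11 past toward large fish) and 1.48 in Dec. fish (2 of 5). Connective tissue probes had a median of 0.30 in Sept. fish (4 of 10 past toward large fish, 2 toward small fish) and 0.83 in Dec. fish (7 of 11 toward large fish, 2 toward small fish). Skin probes had a median of 0.68 in Sept. fish (3 of 4 past toward large fish) and 1.17 in Dec. fish (4 of 4). The study listed all 4 for the Dec. lot on these arrays, so their Dec. calls are not independent of that choice. It did not list them for the Sept. lot. Their Sept. array medians were -0.24 and 0.16 with large fish in 555, against 1.43 and 1.10 with large fish in 647. The Sept. skin values thus differed with the dye orientation. All 7 nerve probes were below 0 in both lots, with a median of -0.68 in Sept. fish (6 past toward small fish) and -0.47 in Dec. fish (3 past). The study listed all 7 for the Sept. lot on these arrays, so their Sept. sign and calls are not independent of that choice. Of the 4 nerve probes not listed for the Dec. lot 0 passed, with a median of -0.16. Over all probes the shares past the threshold were 1.16% toward large and 1.63% toward small fish in the Sept. lot, and 6.54% and 7.59% in the Dec. lot. Dec. pool pair 2, where the hemoglobin medians were high, is also where myosin heavy chain A_05_P277167 was lowest and myozenin-2 A_05_P265999 read 4.52, and the part of these cell types in those values was not tested.

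The named probe most like each member was sought by the largest difference over the 8 arrays. The search covered the 1387 other named probes on all arrays, members of the set included. Their names came from the study's lists of transcripts that differed with body size and from platform gene symbols. Alpha actin A_05_P423987 was nearest to putative lymphocyte G0/G1 switch protein 2 (0.55), and alpha actin A_05_P449267 to response gene to complement 32 protein (0.62). Myosin heavy chain A_05_P277167 was nearest to eukaryotic translation elongation factor 1 epsilon 1 (1.13) and A_05_P393052 to myod1 (1.77), each a loose likeness. Xin A_05_P430497 was nearest to proteolipid protein 1b (0.24), titin A_05_P354062 to esr1 (0.47) and A_05_P448672 to a mitochondrial ribosomal protein (0.39). Troponin I A_05_P432892 was nearest to soluble guanylyl cyclase beta-3 (0.30), A_05_P441982 to si:rp71-1g18.9 (0.52) and myozenin-2 A_05_P277187 to basic transcription factor 3 (0.33). Myozenin-2 A_05_P265999 lacks a value on 1 array and was not placed. Only the Telethonin probes and troponin I A_05_P249354 had another myofibril or Z-disc probe of the set as their nearest named probe. All of these were chosen as high in large fish on the same Sept. arrays, which favours this likeness.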

How the data were processed

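Spots were scanned with a GenePix instrument, and the authors reviewed them manually, discarded weak ratios in GeneSpring and applied lowess, both per array and between arrays. What they deposited is a table of log2 channel ratios with a column for each array, and 0 columns were without a sample. Scanner intensities were not analysed here. Dyes are known from the labels, the direction of the ratio is not. All columns were negated, which gave the sign of 965 of 965 study listings, against 651 of 965 if swapped arrays had not yet been turned. Of 43663 rows, 60 controls were left out.

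Dye-swapped arrays share their RNA, and each such pair was averaged as 1 replicate. Pool pair means (n = 2 per lot) were fitted with lmFit and eBayes of limma 3.58.1 under R 4.3.3, with a mean per lot, both lots sharing the spread. A probe was tested in a lot with values on all 4 arrays (41524 in the Sept. lot, 39770 in the Dec. lot), and p-values, two-sided, were adjusted by Benjamini-Hochberg over these. The p-values measure the spread between pool pairs. The study's threshold was counted on the unadjusted p. The fit was tested on simulated data.

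The members and lists were chosen with earlier results of these data known. All 14 probes are named. For each list of other fast filament, Z-disc and M-band, slow muscle, cytoskeletal, red blood cell, plasma, connective tissue, skin and nerve probes, counts and medians are given, and for the muscle and cytoskeletal lists the probe of largest value. For each of the 13 members measured on all arrays the nearest named probe is named. The fast myotomal tropomyosin and fast skeletal myosin heavy chain probes were added after their values were seen. Alternatives were other fits, scalings, dye orientations, filters and fewer arrays or pool pairs. Leaving out 1 array of Dec. pool pair 1 was chosen after seeing the data.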

Additional observations from a re-analysis of the deposited data

Results flagged for a closer look

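In 2 cases an array stood far from the other 3 arrays of its lot, by a test of the gap over the range. Chance passes this test in about 1 of 20 groups of 4 independent arrays. Every probe of the set with values on all 4 arrays of a lot was examined, 14 for Sept. fish and 13 for Dec. fish. With that many groups, 2 cases are little more than chance would give. The arrays are also not independent, since those with exchanged dyes share their RNA. Troponin I A_05_P249354 read 1.73 on the Dec. pool pair 1 array with large fish in Alexa Fluor 555, while the other Dec. arrays lay between -0.99 and -0.58. Troponin I A_05_P441982 read -0.51 on the Dec. pool pair 1 array with large fish in 647, and the other Dec. arrays lay between -0.28 and -0.25, so that this gap is small in log2 units.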

How the results depend on the processing

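Of 240 alternatives of the 15 tested values, 119 leave the estimate as it was by construction. Of the 121 that move it, 89 kept its sign and 32 did not. Over the 240, 0 reached an adjusted p under 0.05, and only myozenin-2 A_05_P277187 in the Dec. lot kept its sign throughout. With only arrays with large fish in 555, values of opposite sign were 0.42 for troponin I A_05_P249354 and 0.20 for xin A_05_P430497 in the Dec. lot, and -0.32 for troponin I A_05_P441982 and 0.044 for titin A_05_P448672 in the Sept. lot. With only arrays with large fish in 647 they were -0.0033 for myosin heavy chain A_05_P393052, -0.41 for titin A_05_P448672, -0.69 for Telethonin A_05_P263889 and -0.27 for A_05_P413737 in the Dec. lot, and 0.54 for myosin heavy chain A_05_P277167, -0.27 for titin A_05_P354062 and 0.11 for myozenin-2 A_05_P277187 in the Sept. lot. With columns read as not yet turned they were 0.60 for troponin I A_05_P249354, 0.01 for alpha actin A_05_P449267 and 0.21 for xin in the Dec. lot, and 0.075 and -0.39 for troponin I A_05_P432892 and A_05_P441982, -0.42 for alpha actin A_05_P423987 and 0.34 for titin A_05_P448672 in the Sept. lot. Under that reading 6 of the 12 values of a listing lot changed sign too. Without the Dec. pool pair 1 array with large fish in 555, the sign turned for titin A_05_P448672 (-0.26) and Telethonin A_05_P263889 (-0.53) and A_05_P413737 (-0.17). Without its exchanged array it turned for troponin I A_05_P249354 (0.49) and xin (0.22). Arrays scaled to one spread gave -0.15 for Telethonin A_05_P263889, and centred arrays 0.0032 for xin, both in the Dec. lot. The causes were not tested.

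With 1 pool pair left out at a time, values ran across 0 for 7 of these results: from -0.74 to 0.37 for troponin I A_05_P249354, -0.51 to 0.54 and -0.17 to 0.67 for Telethonin A_05_P263889 and A_05_P413737 and -0.11 to 0.091 for xin in the Dec. lot, and from -0.37 to 0.12 for troponin I A_05_P432892, -0.55 to 0.69 for A_05_P441982 and -0.14 to 0.46 for titin A_05_P354062 in the Sept. lot.

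With the limma p used here, the study's threshold was passed by 1157 Sept. and 5619 Dec. probes, which are not the study's own counts. It was passed by 369 Sept. and 892 Dec. probes in the methods' t-test on 4 arrays, which counts a swap as 2 replicates and gave 0 adjusted calls in either lot. Only arrays with large fish in 555 gave 2006 Sept. probes, only those with large fish in 647 gave 2509 Sept. and 2216 Dec. probes, and columns read as not yet turned gave 3119 Sept. probes. Arrays scaled to one spread gave 3566 Dec. probes. The count was 2212 in the Dec. lot without the Dec. pool pair 1 array with large fish in 555, and 612 in the Sept. lot without its exchanged array. With the pool pair as a random effect and a dye term, 8 Dec. probes had an adjusted p under 0.05. With 1 pool pair left out, the counts past the threshold ran from 1135 to 2072 in the Sept. lot and from 4790 to 7068 in the Dec. lot, and adjusted calls from 0 to 355 in the Dec. lot, the 355 arising without Dec. pool pair 1. The lone pool pair is then assumed to vary like the other lot.

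The pool pair numbers are shared by the lots only as names, and the deviations of same-numbered pool pairs correlated at 0.0731 across probes. With the number as a replicate block, 1546 Sept. and 6336 Dec. probes passed the study's threshold and 0 had an adjusted p under 0.05.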
